A study of Mus musculus with 12 samples.

Results

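The genes described here carry the symbols of mitochondrial ribosomal proteins, and their RNA was measured in cells sorted from the olfactory mucosa of mice. They were chosen by symbol, as every gene named Mrpl or Mrps followed by a number and an optional letter, and not by any measured value. Of the 19938 genes with a probe set of their own on the array, 77 met this rule, 48 with large subunit symbols (Mrpl) and 29 with small subunit symbols (Mrps). Of these, 8 had 2 probe sets, of which the brighter on average was used. A further probe set, which the annotation gives to both Ccdc142 and Mrpl53, was left out because its signal belongs to no single gene.

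Mitochondria keep a small genome of their own, and the few proteins it encodes are core subunits of the respiratory chain and ATP synthase. These proteins are made inside the organelle by a dedicated ribosome whose RNA comes from the mitochondrial genome and whose proteins are all encoded in the nucleus, made in the cytosol and imported. Some of its proteins have counterparts in the ribosome of bacteria and others are specific to mitochondria. Olfactory sensory neurons are ciliated cells that turn over throughout life, and sensory signalling in them draws on ATP.

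The mice carried S100a5-tauGFP, a reporter that lights up cells in which the S100a5 gene is on. Its product binds calcium, and in olfactory sensory neurons its transcription follows their activity. A total of 18 mice of both sexes, aged 7 to 12 weeks, spent 40 hours singly in chambers with clean air flowing at 3.1 L per minute. After 26 hours the air brought either a citrus accord, named with 5% in the title of the study, or filtered air as vehicle, in pulses of 10 seconds every 20 minutes. The mucosa of each pool of 3 mice was dissociated, cells with and without GFP were separated by FACS, and each fraction went onto 1 Mouse Gene 1.0 ST array. The 4 groups were GFP-positive cells of odor mice, GFP-negative cells of odor mice, GFP-positive cells of vehicle mice and GFP-negative cells of vehicle mice, with 3 arrays each. All 4 groups carried the reporter. Odor pools are numbered 2, 3 and 4 and vehicle pools 1, 2 and 4, as in the sample titles.

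The fractions differed little in the reporter gene and in the main neuron marker. S100a5 averaged 6.35 ± 0.05 in GFP-positive cells and 6.05 ± 0.18 in GFP-negative cells of odor mice, and 6.35 ± 0.11 in GFP-positive cells and 6.16 ± 0.08 in GFP-negative cells of vehicle mice (log2 values, SD, n = 3 each). It rose by 0.31 in odor mice (adjusted p = 0.0166), and its difference of 0.19 in vehicle mice was not called (adjusted p = 0.123; 0.0435 with quantile scaling and 0.00861 with centring on the median of all genes). Omp, the marker of mature olfactory neurons, averaged 13.48 ± 0.03 in GFP-positive cells and 13.16 ± 0.12 in GFP-negative cells of odor mice, and 13.48 ± 0.03 in GFP-positive cells and 13.17 ± 0.11 in GFP-negative cells of vehicle mice. GFP-negative cells thus held much mature neuron RNA, and beside it RNA of other cells. All 10 neutrophil markers and all 10 macrophage and myeloid markers were lower in GFP-positive cells in both treatments, as were 8 of 8 lymphoid and 7 of 7 sustentacular markers measured. The summed log2 values of the 10 neutrophil markers ranged over 75.1 to 86.6 in GFP-positive and 117.6 to 121.3 in GFP-negative cells of odor mice, and over 76.9 to 80.5 in GFP-positive and 117.3 to 117.9 in GFP-negative cells of vehicle mice. Of the 10 mature neuron markers 9 were higher in GFP-positive cells in both treatments, with a median difference of 0.56 in odor mice and 0.50 in vehicle mice. In such bulk samples fewer cells of a type and less RNA per cell cannot be told apart, and the part of these cells in the results on the sort was not tested. The median value of an array lay between 7.04 and 7.20, above S100a5. The highest value of an array lay between 14.02 and 14.13, so Omp stood near the top of the range.

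The start regions of these genes are shown first, because transcription factors shared by nuclear mitochondrial genes act there. NRF1 and GABPA are transcription factors known for activating nuclear genes of mitochondrial proteins. Promoter windows of RefSeq (build GRCm38.p6), 250 bases before to 50 bases after a gene's start, were at hand for 68 of the 77 genes. The letters CCGGAAG, the core of the ETS motif that GABPA binds, or their reverse complement stood in 25 of the 68 windows (36.8%), against 12.9% of the windows of 17492 protein-coding genes. The core of the NRF1 motif, GCATGCG, stood in 8 (11.8%) against 4.96%, and that of YY1, ATGGCGG, in 12 (17.6%) against 6.05%. The E-box CACGTG that Myc binds stood in 5 (7.35%) against 8.91%. These letters depend on base composition, and the windows of the 68 genes held a median of 21 CpG pairs and 58.0% G and C, against 13 CpG pairs and 56.3% over all windows. A match describes the letters and is not evidence of binding.

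In the 5 stretches below, each from 160 bases before to 20 bases after the start of the gene, capitals mark matches to the NRF1 or GABPA core on either strand. Mrpl47 is shown as a gene with a large rise in the sort, Mrpl46 and Mrps12 because they share their start region with a second mitochondrial gene, and Mrpl33 and Mrpl52 because they are the genes that were lower in GFP-positive cells. The Mrpl47 stretch lies at chr3:32736736-32736915 and the Mrpl46 stretch at chr7:78783070-78783249, both on the minus strand and both without a match. The Mrps12 stretch lies at chr7:28741802-28741981 on the minus strand and holds 1 GABPA core. The Mrpl33 stretch lies at chr5:31613791-31613970 on the plus strand, with an NRF1 core followed by a GABPA core. The Mrpl52 stretch lies at chr14:54426749-54426928 on the plus strand, with 2 GABPA cores.
Mrpl47: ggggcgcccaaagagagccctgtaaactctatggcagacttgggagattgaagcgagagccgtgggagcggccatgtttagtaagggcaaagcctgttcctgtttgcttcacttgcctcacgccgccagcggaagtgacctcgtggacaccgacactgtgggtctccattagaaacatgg
Mrpl46: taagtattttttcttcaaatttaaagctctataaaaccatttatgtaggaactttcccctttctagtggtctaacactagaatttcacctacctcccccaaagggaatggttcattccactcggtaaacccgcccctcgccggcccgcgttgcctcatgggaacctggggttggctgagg
Mrps12: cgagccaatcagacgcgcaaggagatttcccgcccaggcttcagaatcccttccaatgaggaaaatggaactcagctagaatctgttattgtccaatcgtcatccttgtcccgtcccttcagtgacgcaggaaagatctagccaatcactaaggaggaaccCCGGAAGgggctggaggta
Mrpl33: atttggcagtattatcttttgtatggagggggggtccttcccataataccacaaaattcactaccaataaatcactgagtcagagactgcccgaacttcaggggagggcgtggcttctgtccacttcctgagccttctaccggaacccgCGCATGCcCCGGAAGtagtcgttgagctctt
Mrpl52: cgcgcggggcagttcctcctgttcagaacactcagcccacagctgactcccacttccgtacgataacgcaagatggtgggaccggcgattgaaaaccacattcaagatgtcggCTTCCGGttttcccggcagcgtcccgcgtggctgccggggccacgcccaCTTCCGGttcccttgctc

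The sort difference was set beside the presence of each core. The median difference between GFP-positive and GFP-negative cells was 0.23 (log2) for the 25 genes with the GABPA core and 0.26 for the 43 without it in odor mice, and 0.28 and 0.32 in vehicle mice. For the 8 genes with the NRF1 core and the 60 without it the medians were 0.31 and 0.23 in odor mice, and 0.24 and 0.29 in vehicle mice. With YY1 (12 with, 56 without) they were 0.25 and 0.24 in odor mice, and 0.34 and 0.29 in vehicle mice. With the E-box (5 with, 63 without) they were 0.22 and 0.27 in odor mice, and 0.37 and 0.29 in vehicle mice. These medians are a description without a test.

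In the values as deposited, mitochondrial ribosomal protein RNA was mostly higher in GFP-positive than in GFP-negative cells. In odor mice 40 of the 77 genes rose at an adjusted p under 0.05, 25 of 48 with large and 15 of 29 with small subunit symbols, where 33.5% of all genes rose. In the same mice 2 genes fell, against 18.7% of all genes, and 35 were not called. In vehicle mice 41 genes rose, 27 with large and 14 with small subunit symbols, where 29.9% of all genes rose. There 1 gene fell, against 18.2% of all genes, and 35 were not called. The shift was small, with a median difference of 0.23 for each subunit in odor mice beside 0.13 over all genes, and of 0.27 for the large and 0.29 for the small subunit in vehicle mice beside 0.06 over all genes. Differences are log2 values of GFP-positive minus GFP-negative cells, tested in limma with Benjamini-Hochberg adjustment over all 19938 genes. The p-values rest on 3 pools of mice per treatment.

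The size of the shift, and whether more of these genes rose than of genes in general, depend on how the arrays are scaled to one another. That scaling was left as deposited. With cyclic loess 14 genes rose and 8 fell in odor mice and 23 rose and 5 fell in vehicle mice, and the medians were 0.08 and 0.07 for the large and small subunit in odor mice and 0.13 and 0.11 in vehicle mice. Under that scaling 20.7% of all genes rose and 24.5% fell in odor mice, and 21.9% rose and 22.5% fell in vehicle mice, with medians over all genes of 0.02 and 0.01. In odor mice the 14 of 77 that rose were thus a smaller share than that of all genes, as were the 8 that fell. With each array centred on the median of all genes 60 genes rose and 0 fell in odor mice and 65 rose and 0 fell in vehicle mice, where 58.7% of all genes rose and 15.3% fell in odor mice and 46.9% rose and 14.3% fell in vehicle mice, and the median over all genes was itself 0.27 and 0.20. The 10 genes Mrpl41, Mrpl46, Mrpl47, Mrpl48, Mrpl50, Mrpl51, Mrps12, Mrps14, Mrps31 and Mrps33 rose in both treatments as deposited and with quantile, cyclic loess and median scaling. They are 13% of the 77, where 17.1% of all genes did so, a share below that of genes in general. A second probe set of Mrpl47 was not called in vehicle mice as deposited (difference 0.03, adjusted p = 0.809). The other 23 of the 33 genes that rose in both treatments as deposited lost a call under at least 1 scaling, and 1 of them, Mrpl24, had differences below 0 with cyclic loess. None of the 77 fell in both treatments under all 4 scalings.

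**Figure D1:**
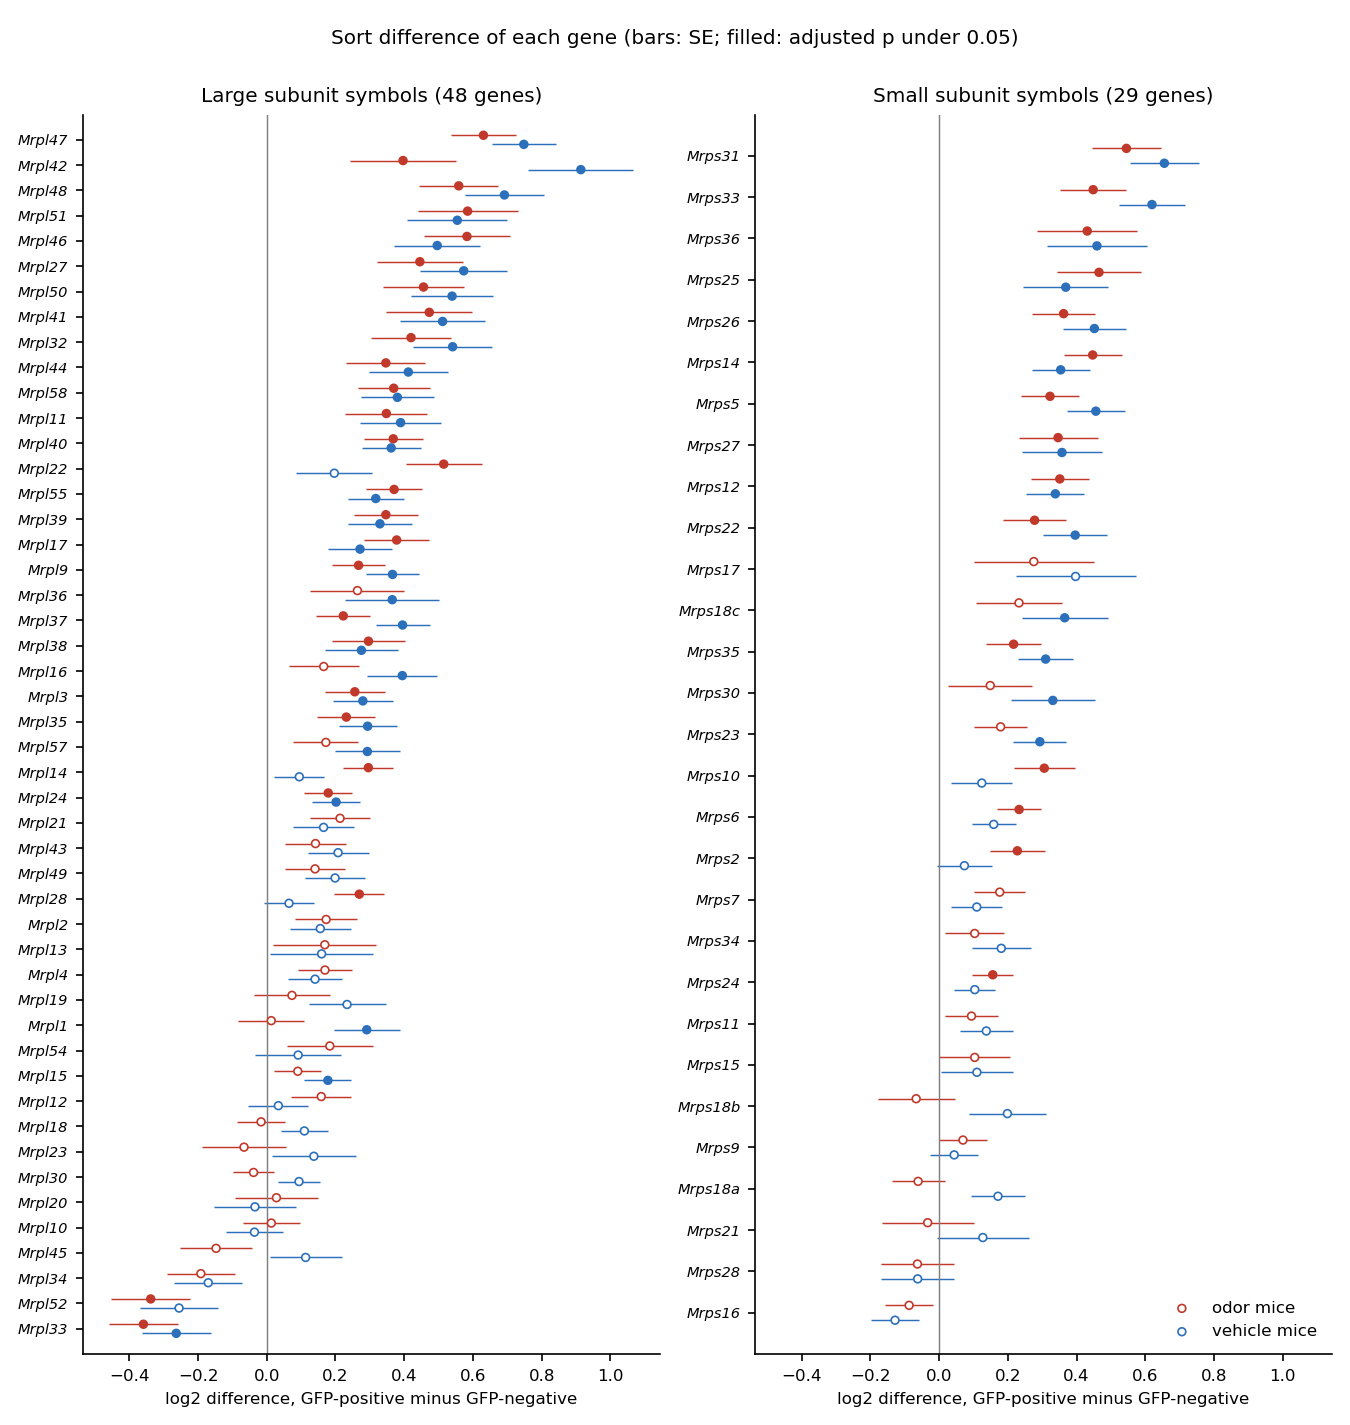
Difference between GFP-positive and GFP-negative cells (log2, horizontal axis) for each of the 48 large subunit (left) and 29 small subunit (right) symbols, in odor mice (red) and vehicle mice (blue), with bars for the SE of the fit and filled points for an adjusted p under 0.05. Most points lie above 0, with Mrpl47, Mrpl42 and Mrpl48 at the top on the left, Mrps31 and Mrps33 on the right, and Mrpl33 and Mrpl52 lowest.

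Pools of mice showed the same direction for most genes. Of the 77 genes 49 were higher in the GFP-positive fraction of 6 of 6 pools, where 36.1% of all genes were, and a further 11 in 5 pools. Mrpl33 was lower in 6 of 6 pools, where 20.2% of all genes were. By pool, 70, 62 and 61 of the 77 genes were higher in GFP-positive cells of odor pools 2, 3 and 4, and 74, 56 and 71 in vehicle pools 1, 2 and 4. Vehicle pool 2 had the smallest difference, with a median of 0.11 for the large and 0.09 for the small subunit beside 0.09 over all genes, whereas the other vehicle pools had large subunit medians of 0.31 and 0.30. Leaving out the GFP-positive array of odor pool 2 left 25 genes that rose in odor mice, and leaving out both arrays of vehicle pool 4 left 21 that rose and 0 that fell in vehicle mice. The shares of all genes called in these smaller fits are not given here, so the counts do not show how the 77 genes compared with genes in general there. Across the 77 genes the differences of odor and vehicle mice, which share no array, had Pearson's r = 0.82 and Spearman's rho = 0.783, as a description over genes that are not independent of one another.

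**Figure D2:**
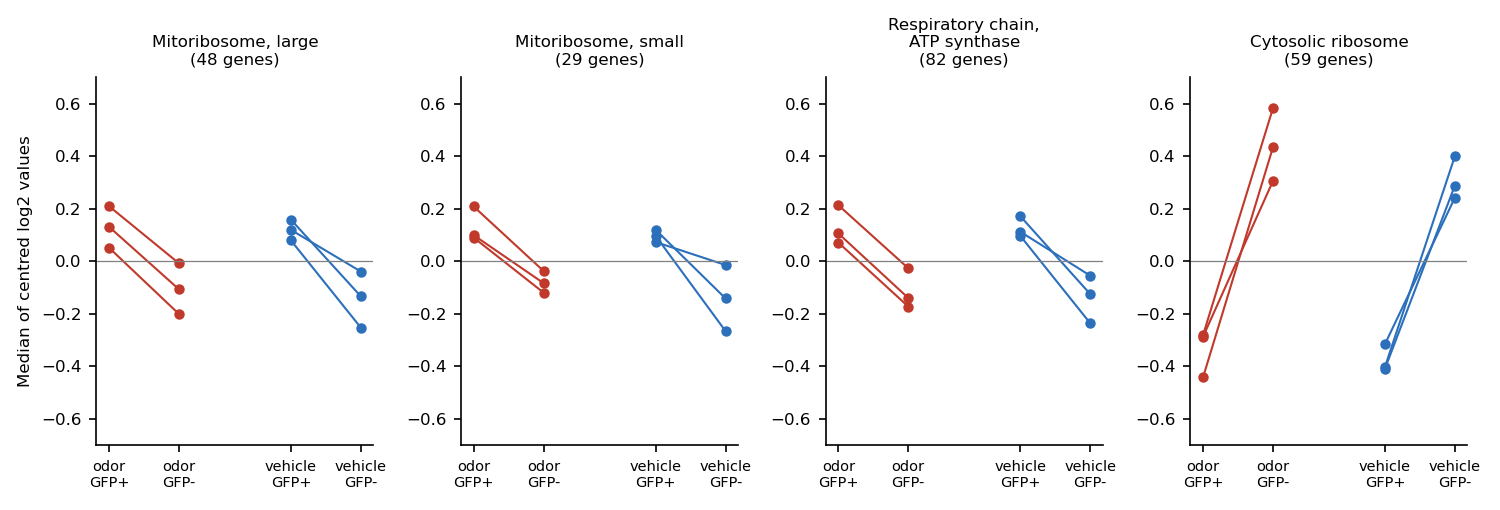
Median over the genes of a list of the log2 value minus that gene's mean over 12 arrays (vertical axis), 1 point per array and a line joining the 2 fractions of a pool, for the large and small subunit of the mitochondrial ribosome, the respiratory chain and the cytosolic ribosome. The GFP-positive end lies above the GFP-negative end in every pool for the first 3 lists and below it for the cytosolic ribosome.

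Among large subunit genes with a bacterial counterpart, Mrpl47 had the largest difference in both treatments. It had 7.43, 7.27 and 7.33 in GFP-positive cells of odor mice, against 6.90, 6.57 and 6.66 in GFP-negative cells (log2 values of pools 2, 3 and 4). In vehicle mice it had 7.44, 7.35 and 7.31 in GFP-positive cells, against 6.69, 6.68 and 6.50 in GFP-negative cells (pools 1, 2 and 4). The groups did not overlap in either treatment, and the difference was 0.63 in odor mice (SE 0.09, adjusted p = 0.000143) and 0.75 in vehicle mice (SE 0.09, adjusted p = 4.15e-05). The second probe set of Mrpl47, which has a lower mean, differed by 0.30 in odor mice (adjusted p = 0.0138) and by 0.03 in vehicle mice (adjusted p = 0.809). The Mrpl47 rise in vehicle mice thus rests on the probe set used. Mrpl27 rose by 0.45 in odor mice and 0.57 in vehicle mice, and its second probe set by 0.73 and 0.84. With cyclic loess the Mrpl27 call in odor mice ended (adjusted p = 0.0505). Mrpl32, which is cleaved by the m-AAA protease on import before it joins the ribosome, rose by 0.42 and 0.54 (adjusted p = 0.0091 and 0.00192).

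Mrpl22, another protein with a bacterial counterpart, was the dimmest of the 77 and the one gene whose mean lay below the lower quartile of every array. It had 5.77, 5.60 and 5.60 in GFP-positive cells of odor mice, against 5.32, 5.17 and 4.94 in GFP-negative cells, and rose by 0.52 (SE 0.11, adjusted p = 0.00185). In vehicle mice it had 5.72, 5.47 and 5.42 in GFP-positive cells, against 5.24, 5.43 and 5.35 in GFP-negative cells, where the groups overlap and the difference of 0.20 was not called (adjusted p = 0.171). The stalk that recruits translation factors gave mixed values. Mrpl11, at its base, rose by 0.35 in odor mice and 0.39 in vehicle mice (adjusted p = 0.0272 and 0.0161). Mrpl10, which carries the stalk, differed by 0.01 and -0.04, and Mrpl12, the stalk protein itself, by 0.16 and 0.03, none of them called.

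Among large subunit genes specific to mitochondria, Mrpl48 and Mrpl46, both of the central protuberance, rose in both treatments. Mrpl48 had 9.85, 9.93 and 9.96 in GFP-positive cells of odor mice, against 9.56, 9.27 and 9.25 in GFP-negative cells, and 9.82, 9.95 and 9.96 in GFP-positive cells of vehicle mice, against 9.32, 9.38 and 8.96 in GFP-negative cells. Its difference was 0.56 in odor mice (SE 0.11, adjusted p = 0.00139) and 0.69 in vehicle mice (SE 0.11, adjusted p = 0.000334), with no overlap of groups. Mrpl46 had 7.89, 7.73 and 7.77 in GFP-positive cells of odor mice, against 7.49, 6.90 and 7.25 in GFP-negative cells, and 7.82, 7.63 and 7.76 in GFP-positive cells of vehicle mice, against 7.25, 7.33 and 7.15 in GFP-negative cells. It rose by 0.58 and 0.50 (adjusted p = 0.00184 and 0.0052), and without both arrays of vehicle pool 4 the call in vehicle mice ended (adjusted p = 0.0575). Mrpl38 and Mrpl40, of the same protuberance, rose by 0.30 and 0.37 in odor mice and by 0.28 and 0.36 in vehicle mice. Mrpl41, Mrpl50 and Mrpl51 rose by 0.47, 0.46 and 0.58 in odor mice and by 0.51, 0.54 and 0.55 in vehicle mice. The second probe sets of Mrpl41 and Mrpl51 moved the same way, by 0.36 and 0.60 in odor mice and by 0.25 and 0.55 in vehicle mice.

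Mrpl42 had the largest difference of the 77 genes in vehicle mice. In odor mice it had 7.69, 7.17 and 7.34 in GFP-positive cells, against 7.11, 6.97 and 6.92 in GFP-negative cells, a difference of 0.40 (SE 0.15, adjusted p = 0.0456, and 0.174 with cyclic loess). In vehicle mice it had 7.82, 7.60 and 7.94 in GFP-positive cells, against 7.15, 6.89 and 6.59 in GFP-negative cells, a difference of 0.91 (SE 0.15, adjusted p = 0.000358). The GFP-positive values of odor pools 3 and 4 lay below all 3 of vehicle mice. Mrpl58, a peptidyl-tRNA hydrolase built into the ribosome that can free stalled chains, rose by 0.37 in odor mice and 0.38 in vehicle mice (adjusted p = 0.0107 and 0.00927). Mrpl45, which lies at the exit of the peptide tunnel and holds the ribosome to the inner membrane, differed by -0.15 and 0.11 and was not called, while its neighbour at the tunnel exit Mrpl44 rose by 0.35 and 0.41.

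Mrpl33 and Mrpl52 went the other way as deposited. Mrpl33, with a bacterial counterpart, had 7.19, 7.20 and 7.25 in GFP-positive cells of odor mice, against 7.48, 7.43 and 7.82 in GFP-negative cells, and 7.19, 7.12 and 7.20 in GFP-positive cells of vehicle mice, against 7.46, 7.30 and 7.54 in GFP-negative cells. All 6 GFP-positive values lay below all 6 GFP-negative values. It fell by 0.36 in odor mice (SE 0.10, adjusted p = 0.00954) and by 0.26 in vehicle mice (SE 0.10, adjusted p = 0.0456). Mrpl52, specific to mitochondria, had 8.37, 8.12 and 8.14 in GFP-positive cells of odor mice, against 8.37, 8.63 and 8.64 in GFP-negative cells, and fell by 0.34 (SE 0.11, adjusted p = 0.0257). In vehicle mice it had 8.38, 8.23 and 8.02 in GFP-positive cells, against 8.37, 8.61 and 8.42 in GFP-negative cells, a difference of -0.26 that was not called (adjusted p = 0.0861). These calls moved with the setting. With cyclic loess both genes fell in both treatments, Mrpl33 by 0.46 and 0.29 (adjusted p = 0.00312 and 0.0414) and Mrpl52 by 0.50 and 0.40 (adjusted p = 0.0036 and 0.0128). The Mrpl33 call in vehicle mice ended with quantile scaling (difference -0.16, adjusted p = 0.206) and without any one of 5 of the 6 vehicle arrays, and centring on the median of all genes ended both calls of Mrpl33 and that of Mrpl52 in odor mice (adjusted p = 0.0806, 0.352 and 0.119) with the sign kept.

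**Figure D3:**
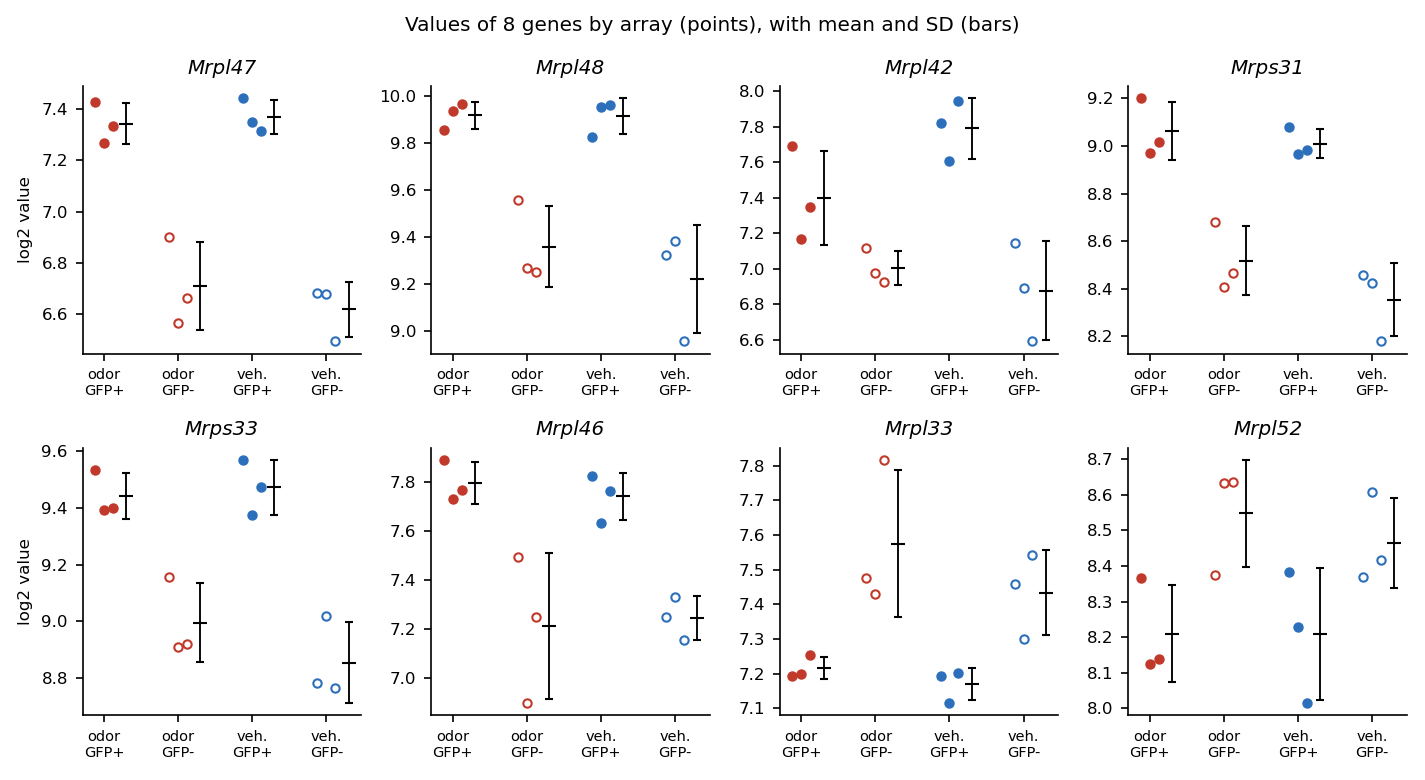
Log2 values of 8 genes on each array (points), with the mean and SD of each group (bars), for odor and vehicle mice and for GFP-positive (filled) and GFP-negative (open) cells; each panel has its own vertical range, which does not start at 0. The GFP-positive points lie higher for Mrpl47, Mrpl48, Mrpl42, Mrps31, Mrps33 and Mrpl46 and lower for Mrpl33, while the groups of Mrpl52 overlap in vehicle mice.

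In the small subunit Mrps31, specific to mitochondria, had the largest difference in both treatments. It had 9.20, 8.97 and 9.02 in GFP-positive cells of odor mice, against 8.68, 8.41 and 8.47 in GFP-negative cells, and 9.08, 8.96 and 8.98 in GFP-positive cells of vehicle mice, against 8.46, 8.42 and 8.18 in GFP-negative cells. The groups did not overlap, and it rose by 0.55 in odor mice (SE 0.10, adjusted p = 0.000637) and 0.66 in vehicle mice (SE 0.10, adjusted p = 0.000185). Mrps33 had 9.54, 9.39 and 9.40 in GFP-positive cells of odor mice, against 9.16, 8.91 and 8.92 in GFP-negative cells, and 9.57, 9.38 and 9.47 in GFP-positive cells of vehicle mice, against 8.78, 9.02 and 8.76 in GFP-negative cells. It rose by 0.45 and 0.62 (adjusted p = 0.00186 and 0.000208), and its second probe set by 0.45 and 0.59. Mrps25, Mrps26 and Mrps22 rose by 0.47, 0.36 and 0.28 in odor mice and by 0.37, 0.45 and 0.40 in vehicle mice.

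Of small subunit genes with a bacterial counterpart, Mrps14 rose by 0.45 in odor mice and 0.35 in vehicle mice (adjusted p = 0.000792 and 0.00382), and Mrps12, whose bacterial counterpart lies at the decoding centre, by 0.35 and 0.34. Mrps12 had 8.20, 7.97 and 8.03 in GFP-positive cells of odor mice, against 7.69, 7.80 and 7.66 in GFP-negative cells, and 8.11, 8.05 and 8.0 in GFP-positive cells of vehicle mice, against 7.58, 7.80 and 7.76 in GFP-negative cells. Mrps16 had the lowest small subunit difference, -0.09 in odor mice and -0.13 in vehicle mice, neither called. With cyclic loess it fell by 0.27 and 0.32 (adjusted p = 0.0146 and 0.00537), whereas its sign turned to 0.05 and 0.02, not called, when arrays were centred on the median of all genes. Mrps36 carries a small subunit symbol but is known as a subunit of the alpha-ketoglutarate dehydrogenase complex, and it was put in neither list by origin. It rose by 0.43 and 0.46 (adjusted p = 0.0257 and 0.0195). Without both arrays of vehicle pool 4 the Mrps36 call in vehicle mice ended (adjusted p = 0.0786). Leaving out only the GFP-positive array of vehicle pool 1 or the GFP-negative array of vehicle pool 4 also ended it (adjusted p = 0.0689 and 0.0669).

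Sorted by origin, genes for proteins specific to mitochondria had the larger medians. In odor mice the 18 such genes of the large subunit had a median of 0.35 and the 30 with a bacterial counterpart 0.18. In the small subunit the 10 mitochondria-specific genes had 0.31 and the 16 others 0.20. In vehicle mice the medians were 0.37 and 0.19 in the large and 0.36 and 0.13 in the small subunit. Calls followed. In odor mice 12 of 18 against 13 of 30 large and 7 of 10 against 7 of 16 small subunit genes were higher. In vehicle mice 13 of 18 against 14 of 30 and 8 of 10 against 4 of 16 were. Of all genes 33.5% rose in odor mice and 29.9% in vehicle mice, so the 4 of 16 (25%) lay below that share. The order of the medians stayed with cyclic loess, in odor mice at 0.18 and 0.05 in the large and 0.16 and 0.03 in the small subunit, and in vehicle mice at 0.17 and 0.12 and at 0.26 and -0.03. Under that scaling 5 of 18 against 4 of 30 large subunit genes rose in odor mice, and 8 against 5 in vehicle mice. In the small subunit 3 of 10 against 2 of 16 rose in odor mice, and 6 against 3 in vehicle mice. Genes that fell numbered 2 against 4 in the large and 0 against 1 in the small subunit of odor mice. In vehicle mice they numbered 1 against 3 and 0 against 1. Of all genes 20.7% and 21.9% rose in odor and vehicle mice, and 24.5% and 22.5% fell. With quantile scaling the medians were 0.32 and 0.24 in the large and 0.32 and 0.20 in the small subunit of odor mice. In vehicle mice quantile scaling left the large subunit medians close together, at 0.29 and 0.27, and gave 0.42 and 0.12 in the small subunit. The difference between the 2 origins was not tested. Mrps18a and Mrps30 carry small subunit symbols although their proteins sit in the large subunit of mammals, and Mrps30 differed by 0.15 in odor mice, which was not called, and rose by 0.33 in vehicle mice (adjusted p = 0.0414). The paralogs Mrps18a, Mrps18b and Mrps18c, all related to 1 bacterial protein, differed by -0.06, -0.07 and 0.23 in odor mice, none called, and by 0.17, 0.20 and 0.37 in vehicle mice, where Mrps18c rose (adjusted p = 0.0284). In the lists by origin Mrps18c was counted as having a bacterial counterpart, Mrps18b as specific to mitochondria despite this relation, and Mrps18a in neither.

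Treatments shared most calls. Of the 77 genes 33 rose in both, where 25.6% of all genes did, and Mrpl33 fell in both, where 16.5% did. A further 7 genes rose in odor mice and were not called in vehicle mice, 8 genes rose in vehicle mice and were not called in odor mice, Mrpl52 fell in odor mice and was not called in vehicle mice, and 27 passed in neither. Those called in 1 treatment are not shown to differ between treatments, and the test of that difference is given further on. Groups did not overlap for 46 genes that were higher and 3 that were lower in odor mice, where 40.4% and 20.4% of all genes did so, and for 46 and 1 in vehicle mice, where 35.3% and 22% did so.

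Among other genes of mitochondrial protein synthesis more rose than fell as deposited, where 33.5% of all genes rose in odor mice and 29.9% in vehicle mice. Dap3, a small subunit protein without an Mrp symbol, rose by 0.39 in odor mice and 0.58 in vehicle mice (adjusted p = 0.00197 and 0.000135). Ptcd3, another such protein, differed by 0.25 in odor mice, which was not called (adjusted p = 0.0674), and rose by 0.39 in vehicle mice (adjusted p = 0.01). Without both arrays of vehicle pool 4 the Ptcd3 call in vehicle mice ended (difference 0.29, adjusted p = 0.0674). Chchd1, of the small subunit, rose in odor mice by 0.41 and differed by 0.17 in vehicle mice, where it was not called, and Gadd45gip1, of the large subunit, differed by 0.15 and 0.22 and was not called in either. In vehicle mice Gadd45gip1 passed with quantile scaling (adjusted p = 0.0163) and with centring on the median of all genes (0.00232). It also passed with the filter on genes low in value (0.0407), the mean of probe sets (0.0498) and the 2 groups alone (0.0335). Leaving out any one vehicle array gave no call. Of these 4 genes 2 rose in each treatment as deposited. Of 23 genes for assembly of the mitochondrial ribosome and processing of its RNA 14 rose and 1 fell in odor mice and 17 rose in vehicle mice. Among them Mterf4, which works with a methyltransferase of the mitochondrial small subunit RNA, rose by 0.47 and 0.64, Gtpbp10, a GTPase of large subunit assembly, by 0.38 and 0.60, and Ngrn, needed for the large subunit RNA, by 0.70 and 0.59.

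Of 11 mitochondrial translation factors 6 rose in odor mice and 6 in vehicle mice. The initiation factor Mtif3 rose by 0.32 and 0.40, and the ribosome recycling factor Gfm2 by 0.32 and 0.37. The vehicle calls of Guf1 and Mtif2 ended with cyclic loess (adjusted p = 0.0908 and 0.156). They also ended without both arrays of vehicle pool 4 (adjusted p = 0.119 and 0.232). Leaving out 1 vehicle array ended the call of Guf1 in 3 of 6 fits and that of Mtif2 in 4 of 6. Of 16 mitochondrial aminoacyl-tRNA synthetases 8 rose in odor mice and 9 in vehicle mice, among them Lars2, which charges leucine tRNA, by 0.49 and 0.48, and Wars2, which charges tryptophan tRNA, by 0.39 and 0.53. Of 11 genes of mitochondrial transcription and RNA 4 rose in each (36.4%), a share near that of all genes, among them Slirp, an RNA-binding partner of Lrpprc, by 0.54 and 0.69 and the elongation factor Tefm by 0.42 and 0.56. Tfam, which packs and transcribes mitochondrial DNA, differed by -0.06 in odor mice (adjusted p = 0.679) and rose by 0.32 in vehicle mice (adjusted p = 0.0375, and 0.0809 with cyclic loess). That call also ended without any one of 5 of the 6 vehicle arrays (adjusted p from 0.0562 to 0.131). No gene of these 3 lists fell as deposited. With cyclic loess the counts were smaller, with 5 assembly genes higher and 2 lower, 1 factor higher, 5 synthetases higher, and 2 transcription genes higher and 1 lower in odor mice. In vehicle mice cyclic loess gave 10 assembly genes higher and 1 lower, 2 factors, 8 synthetases and 2 transcription genes higher. Under that scaling 20.7% of all genes rose and 24.5% fell in odor mice, and 21.9% rose and 22.5% fell in vehicle mice.

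The products of the mitochondrial ribosome join the respiratory chain and ATP synthase. Of 82 nuclear genes for these complexes 49 rose and 2 fell in odor mice and 43 rose and 4 fell in vehicle mice, with medians of 0.27 and 0.26. Of all genes 33.5% rose and 18.7% fell in odor mice, and 29.9% rose and 18.2% fell in vehicle mice. Ndufa9, Ndufb6 and Ndufs4, all of complex I, rose by 0.59, 0.53 and 0.46 in odor mice and by 0.61, 0.64 and 0.58 in vehicle mice. The cytosolic ribosome moved oppositely. Of its 59 protein genes 0 rose and 51 fell in odor mice and 0 rose and 52 fell in vehicle mice, with medians of -0.75 and -0.68. Rplp0, a stalk protein, fell by 1.74 in odor mice and fell by 1.59 in vehicle mice. Beside these values, of the 8 markers of dividing cells measured 7 were lower in GFP-positive cells of odor mice and 8 in those of vehicle mice, and their part in the ribosome results was not tested. With cyclic loess 20 respiratory genes rose and 5 fell in odor mice and 23 rose and 7 fell in vehicle mice, while 52 and 53 cytosolic ribosomal protein genes fell. Under that scaling 20.7% of all genes rose and 24.5% fell in odor mice, and 21.9% rose and 22.5% fell in vehicle mice.

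**Figure D4:**
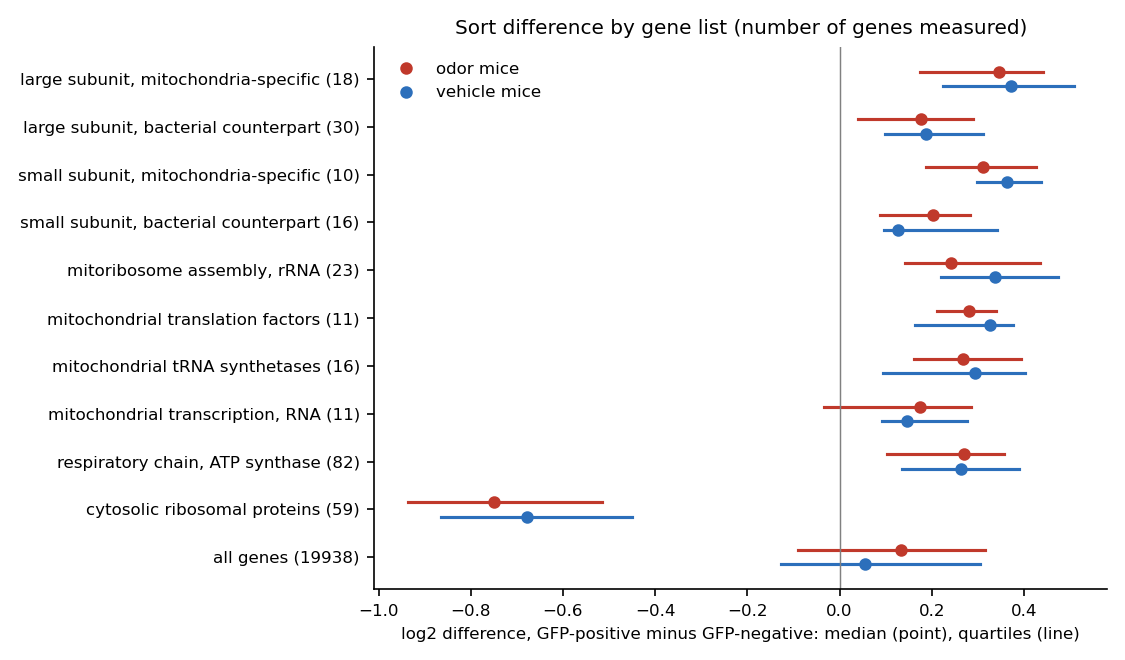
Median (points) and quartiles (lines) of the difference between GFP-positive and GFP-negative cells (log2, horizontal axis) for each gene list, in odor mice (red) and vehicle mice (blue), with the number of genes measured in brackets. The lists of mitochondrial protein synthesis and the respiratory chain lie to the right of all genes, and the cytosolic ribosomal proteins lie far to the left.

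Among regulators, Ppargc1a, the coactivator known for raising mitochondrial content, rose by 0.97 in odor mice and 1.04 in vehicle mice (adjusted p = 2.21e-06 and 1.42e-06), and its relative Ppargc1b by 0.51 and 0.59. Nrf1 differed by 0.12 in odor mice (adjusted p = 0.144) and rose by 0.18 in vehicle mice (adjusted p = 0.0364), a call that ended with cyclic loess (difference 0.01, adjusted p = 0.903), with quantile scaling (adjusted p = 0.0823), with the pool as a block (adjusted p = 0.0722), with the 2 groups alone (adjusted p = 0.0545) and without any one of 5 of the 6 vehicle arrays (adjusted p from 0.0544 to 0.104). Gabpa differed by -0.10 and -0.0022 and was not called. Myc, a driver of growth and of ribosome genes, fell by 2.35 and 2.17. Of the 9 regulators 3 rose and 1 fell in each treatment, beside the 33.5% and 29.9% of all genes that rose and the 18.7% and 18.2% that fell. With cyclic loess 2 rose and 4 fell in odor mice and 2 rose and 2 fell in vehicle mice. Under that scaling 20.7% of all genes rose and 24.5% fell in odor mice, and 21.9% rose and 22.5% fell in vehicle mice.

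Many of these genes face a second gene. For 24 of the 68 genes with a RefSeq start (35.3%) a gene on the opposite strand started within 1000 bases upstream, against 8.48% of 17492 protein-coding genes. Of the 23 partners measured 9 rose and 4 fell in odor mice and 12 rose and 4 fell in vehicle mice, where 33.5% of all genes rose and 18.7% fell in odor mice and 29.9% rose and 18.2% fell in vehicle mice. In odor mice these counts lie near the shares of all genes. Mrps12 starts 147 bases from Sars2, the mitochondrial seryl-tRNA synthetase, which rose by 0.40 in each treatment (adjusted p = 0.00211 and 0.00207) beside 0.35 and 0.34 of Mrps12. Mrpl47 starts 308 bases from Ndufb5 of complex I, which rose by 0.35 and 0.40 (adjusted p = 0.00416 and 0.00167). Mrpl46 and Mrps11 start 42 bases apart, and while Mrpl46 rose in both treatments, Mrps11 differed by 0.09 and 0.14 and was not called (adjusted p = 0.316 and 0.17).

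Other pairs went apart. Mrpl49 lies 192 bases from Fau, which encodes a cytosolic ribosomal protein and fell by 0.75 and 0.83, whereas Mrpl49 differed by 0.14 and 0.20 and was not called. Mrpl51 lies 614 bases from Ncapd2, a subunit of condensin in dividing cells, which fell by 0.61 and 0.41 while Mrpl51 rose. Mrpl41 lies 935 bases from the lipase gene Pnpla7, which fell by 1.30 and 1.28 while Mrpl41 rose.

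The accord itself left no called change in these genes. In GFP-positive cells 0 of 77 genes passed the limma test of odor against vehicle, where 0.00502% of all genes were higher and 0% lower, and 1 had an unadjusted p under 0.05. The smallest adjusted p was 1. The median difference, odor minus vehicle, was 0.00 for the large and 0.01 for the small subunit beside 0.00 over all genes. The 95% intervals of the 77 differences together spanned -0.72, the lower bound of Mrpl42, to 0.43, the upper bound of another gene. The interval of each single gene was narrower than this span, and the median SE was 0.09. With 3 pools a group, changes within a gene's own interval are not excluded for that gene. The gene with an unadjusted p under 0.05 was Mrpl42, with the values given above and a difference of -0.39 (SE 0.15, limma's unadjusted p = 0.0256, interval -0.72 to -0.06). Groups did not overlap for 1 gene, Mrps34, which had 8.15, 8.01 and 8.01 in odor mice, against 7.89, 8.0 and 7.90 in vehicle mice, where 4.49% of all genes were higher in this way, and for 0 genes that were lower, where 3.45% of all genes were.

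In GFP-negative cells 0 of 77 genes passed, where 0% of all genes did in either direction, with 6 at an unadjusted p under 0.05 and a smallest adjusted p of 0.732. The median difference was 0.04 for each subunit beside -0.01 over all genes. Groups did not overlap for 6 genes that were higher and 3 that were lower in odor mice, where 2.79% and 4.65% of all genes did so. Mrpl14, a protein of the subunit interface in bacteria, had 7.79, 7.77 and 7.77 in odor mice, against 8.01, 8.09 and 7.99 in vehicle mice, a difference of -0.25 (SE 0.07, limma's unadjusted p = 0.00466). Mrpl1, of the stalk through which spent tRNA leaves, had 8.26, 8.04 and 8.11 in odor mice, against 7.89, 7.88 and 7.91 in vehicle mice, a difference of 0.24 (SE 0.10, limma's unadjusted p = 0.0261). Mrps34 differed by 0.20 and Mrps18a by 0.19. None of these passed after adjustment.

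**Figure D5:**
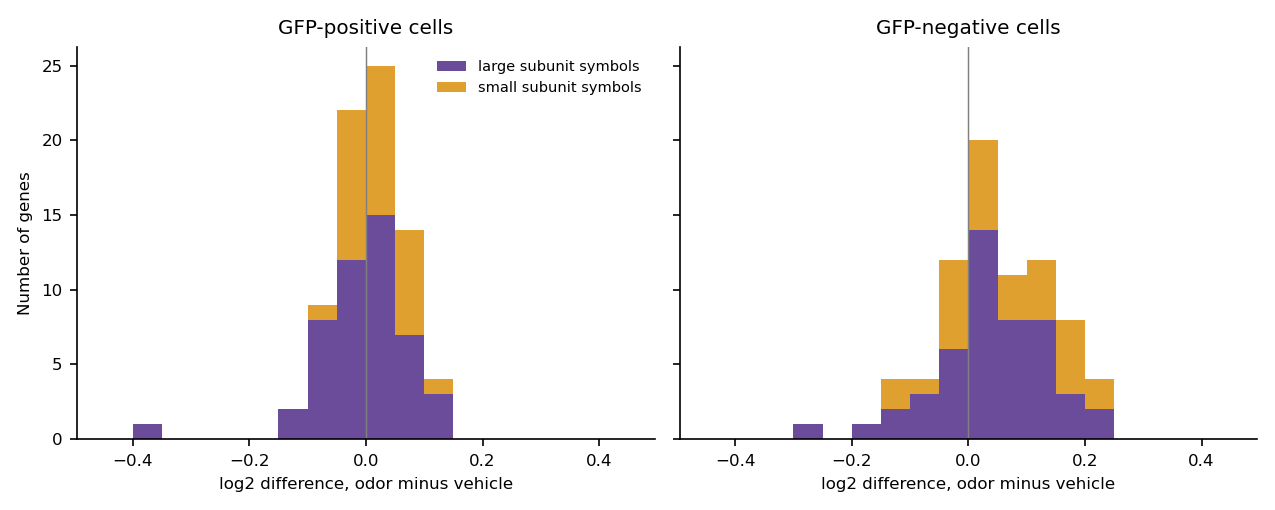
Number of genes (vertical axis, stacked for large and small subunit symbols) by the difference between odor and vehicle mice (log2, horizontal axis, bins of 0.05), in GFP-positive cells (left) and GFP-negative cells (right). Differences gather around 0 on the left, with Mrpl42 alone at -0.39, and spread more widely on the right, from -0.25 to 0.25.

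Whether the accord changed the difference between the fractions was tested as an interaction, and 0 of 77 genes passed, where 0.00502% of all genes were higher and 0% lower. The smallest adjusted p was 0.971, and 1 gene had an unadjusted p under 0.05. The median was -0.05 for the large and -0.04 for the small subunit beside 0.02 over all genes. Mrpl42 had the largest value, -0.52 (SE 0.22, limma's unadjusted p = 0.0337), followed in the other direction by Mrpl22 with 0.32 (SE 0.16, limma's unadjusted p = 0.0631).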

How the data were processed

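RNA abundance was measured on 12 arrays in 4 groups of 3. The authors deposited 1 log2 value for each probe set and array. Affymetrix Expression Console is the tool in the submitters' processing notes, and neither its version nor its scaling of the arrays is given in the sources used here. Of 35556 probe sets 21789 had 1 gene symbol in the platform annotation, and the one with the highest mean was kept for each of 19938 genes, with no filter on low values. The table held 0 columns of other samples. Array signals give no count, so the number of arrays limits the precision.

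A linear model of the 4 groups was fitted to all 12 arrays with limma 3.58.1 (R 4.3.3), using moderated two-sided tests, Benjamini-Hochberg adjustment over all genes at 0.05, and no replicate block. Differences carry the SE of the fit and means the SD of 3 arrays. The fractions of a pool come from the same 3 mice per the labels, and deviations of the 2 fractions of a pool correlated with r from 0.073 to 0.252, against -0.175 to 0.057 between pools of 1 treatment. With the pool as a block 37 genes rose in odor mice, where 32.9% of all genes did, and 41 in vehicle mice, where 29.7% did. Numbers of odor and vehicle pools mark no shared mice. Second probe sets were tested in a fit of all single-symbol probe sets.

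Alternatives were other scalings, a filter on genes low in value, the mean of probe sets, array weights, the 2 groups alone and leaving out arrays; centring on the median of all genes and leaving out vehicle pool 4 were added after seeing the data. Motif letters and opposite-strand neighbours came from RefSeq tables of GRCm38.p6, whose coordinates are given for the promoter stretches. Promoters were searched in Python 3.11.15 (pandas 2.3.3, numpy 2.4.6) and figures drawn in matplotlib 3.10.9.

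The genes, lists and tests were chosen with earlier results of these data known. Genes were named by rule as those of the largest rise and fall among called genes per comparison, or of the smallest p, with up to 4 genes per list. Outside the rule, and chosen after their values were seen, are the genes named for a role (Mrpl10, Mrpl11, Mrpl12, Mrpl38, Mrpl40, Mrpl44, Mrpl45, Mrpl58, Mrps12, Mrps18b, Mrps18c, Mrps22, Mrps26 and Mrps30), some in comparisons where the rule does not name them, and the promoter partners.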

Additional observations from a re-analysis of the deposited data

Results flagged for a closer look

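Mrps18a, whose protein sits in the large subunit of the mitochondrial ribosome, differed in direction between treatments. Its GFP-positive value minus its GFP-negative value was -0.03, -0.0019 and -0.15 in odor pools 2, 3 and 4 and 0.28, 0.18 and 0.06 in vehicle pools 1, 2 and 4 (log2), so that every odor pool went one way and every vehicle pool the other. The test of the difference between treatments, limma's interaction term, gave -0.23 (SE 0.11, adjusted p = 0.971), which did not pass. Such opposed pools were seen for 1 of the 77 genes and for 217 of all 19938 genes.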

How the results depend on the processing

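The values most open to processing were the counts and medians of the sort. With cyclic loess 14 genes rose and 8 fell in odor mice, with medians of 0.0771 and 0.0665 for the large and small subunit, and 23 rose and 5 fell in vehicle mice, with medians of 0.13 and 0.11; the small subunit median of the interaction was -0.11. Centring on the median of all genes gave medians of 0.37 and 0.37 with 0 genes lower in odor mice, and 0.42 and 0.44 with 65 genes higher and 0 lower in vehicle mice. Quantile scaling gave 0 genes lower in vehicle mice, where 17.8% of all genes fell. Leaving out both arrays of vehicle pool 4 gave 21 higher and 0 lower, and the shares of all genes in that fit are not given here. The causes of these moves were not tested.

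Leaving out 1 array at a time gave 25 to 39 genes higher and 1 to 3 lower in odor mice, and 28 to 44 higher and 0 to 1 lower in vehicle mice. The shares of all genes called in these fits are not given here. The large subunit median then ranged from 0.18 to 0.27 in odor mice and from 0.22 to 0.30 in vehicle mice, and the small subunit median from 0.16 to 0.25 and from 0.21 to 0.32. For odor against vehicle the small subunit median ranged from -0.0385 to 0.0431 in GFP-positive cells, and for the interaction from -0.129 to 0.0143. The call of Mrpl52 in odor mice was lost without any one array of odor pools 3 and 4 (adjusted p from 0.0741 to 0.0886).

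With the replicate block of the pool 37 genes rose in odor mice, all among the 40 without it, and 41 in vehicle mice, 40 of them shared. Of all genes 32.9% rose in odor mice and 29.7% in vehicle mice with that block. With a replicate block of the numbers in the titles, which mark no shared mice, the large subunit median of odor against vehicle in GFP-positive cells was 0.0611. None of the 77 genes was called for odor under any alternative run. Among single genes, the difference of Gabpa in vehicle mice, near 0, ranged from -0.0575 to 0.0569 without 1 array and was 0.144 with centring, and that of Mrps16 turned to 0.0531 in odor mice and 0.018 in vehicle mice with centring. Of the other checks of single genes 1089 kept direction and side of the threshold, 60 lost the call and 9 gained it.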
